A study of Mus musculus with 189 samples.

Results

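The genes described here were Apoe and 6 other genes of lipid handling, Abca1, Abcg1, Lpl, Soat1, Plin2 and Hmgcs1, which are 7 of the 46078 gene rows of a single-cell RNA sequencing count table. They were chosen by symbol, as a lipid handling set put together with earlier results of these data in view, so their values are a description and carry no test. All 7 had at least 1 read in the kept cells. The study profiled late mast cell differentiation in 189 single peritoneal cells of 4 female mice of strain C57BL/6, and the labels give no age, genetic change or treatment. Mature mast cells (94 cells) were live, lineage negative, positive for c-Kit and the IgE receptor FcεRI, low for integrin β7 and high in side scatter. Basophil-mast cell progenitors, or BMCPs (95 cells), shared the first 3 criteria but were high for integrin β7 and low in side scatter. The labels do not say which mouse a cell came from. Each group therefore counted as 1 pooled sample, no comparison below has a replicate check, and every interval covers counting error only. The Poisson intervals treat reads as independent, although PCR copies were not collapsed, so they do not cover error in the count of molecules or differences between cells.

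Apolipoprotein E is a secreted protein that coats lipoprotein particles and hands cholesterol and other lipids to cells through lipoprotein receptors. Abca1 and Abcg1 encode membrane transporters that move cholesterol out of cells onto apolipoproteins and lipoprotein particles, and in macrophages both, with Apoe, are targets of the sterol-sensing LXR receptors. Lpl encodes lipoprotein lipase, Soat1 the enzyme that esterifies cholesterol for storage, Plin2 a protein that coats the lipid droplets where such esters are kept, and Hmgcs1 an early enzyme of cholesterol synthesis under the control of the SREBP transcription factors. Mast cells store their mediators in protease-rich granules, and they are not among the cell types for which Apoe is best known, which are hepatocytes, macrophages and astrocytes.

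The promoters of 3 of the genes are shown, as they stand for the secreted carrier, an exporter and the synthesis pathway and can be compared for sterol-type motifs. Each is the 250 bases before the first RefSeq start in the table (GRCm38.p6), 5′ to 3′ on the gene's strand, and capitals mark exact matches on either strand to a sterol regulatory element (TCACCCCAC), CCAAT, a GC box (GGGCGG) or TATAAA.
Apoe: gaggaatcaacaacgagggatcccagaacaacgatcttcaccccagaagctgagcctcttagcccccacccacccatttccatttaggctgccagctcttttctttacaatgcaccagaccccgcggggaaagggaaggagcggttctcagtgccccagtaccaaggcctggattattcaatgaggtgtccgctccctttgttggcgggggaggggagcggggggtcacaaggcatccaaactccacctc
Abca1: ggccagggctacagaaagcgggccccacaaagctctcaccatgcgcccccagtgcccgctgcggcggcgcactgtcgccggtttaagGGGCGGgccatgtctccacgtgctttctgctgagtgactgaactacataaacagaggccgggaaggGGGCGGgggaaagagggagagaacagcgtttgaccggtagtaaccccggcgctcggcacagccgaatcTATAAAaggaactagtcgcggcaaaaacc
Hmgcs1: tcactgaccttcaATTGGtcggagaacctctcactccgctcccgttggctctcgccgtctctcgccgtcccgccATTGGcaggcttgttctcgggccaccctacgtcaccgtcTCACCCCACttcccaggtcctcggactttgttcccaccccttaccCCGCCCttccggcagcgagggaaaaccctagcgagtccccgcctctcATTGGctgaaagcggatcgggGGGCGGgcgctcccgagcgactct
The Apoe window is chr7:19699189-19699438 on the minus strand, Abca1 chr4:53159896-53160145 on the minus strand and Hmgcs1 chr13:119690101-119690350 on the plus strand. Hmgcs1 held the sterol regulatory element 137 bases before its start, a match found in 0.496% of 32841 promoter windows of the same length, with 3 CCAAT matches (in 33.9% of windows) and 2 GC boxes (in 32.7%). Abca1 held TATAAA 29 bases before its start (in 12.4% of windows), 2 GC boxes and an E-box CACGTG (in 6.02%) that is not capitalised. Apoe had none of these matches in the window shown, and of the windows of 2 further RefSeq starts, 1 held TATAAA, 100 and 96 bases before that start. The LXR-type direct repeat DR4 (in 0.0152% of windows), the AP-1 motif TGANTCA (in 6.75%) and the GATA motif AGATAA (in 9.99%) were not in these letters in any of the 3 windows. DR4 here means only the perfect repeat of its consensus letters, with no base changed. DR4 elements with other letters were not searched for, and the windows, that of Abca1 included, may hold one. A match is a description of letters, and the absence of one says nothing about a factor.

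All 94 mature mast cells and 93 of the 95 BMCPs had at least 100000 reads on endogenous genes and were kept. They held 561600 to 2152221 endogenous reads per mature mast cell and 344022 to 2091665 per BMCP, so depth was close between the groups. Endogenous reads per ERCC spike-in read had a median of 939 in mature cells and 562 in BMCPs. A level is given as CPM (reads of a gene per 1000000 endogenous reads), pooled over a group's cells or per cell, and a difference as the log2 ratio of pooled mature CPM + 1 over pooled BMCP CPM + 1. Mast cell markers dominated both groups: the proteases Cma1, Tpsb2 and Cpa3 had 93353, 80599 and 73559 pooled CPM in mature mast cells and 56528, 48596 and 53996 in BMCPs. Genes were compared if they reached 5 CPM in at least 1 group, which 10556 did. Their median log2 ratio was -0.25, and it was 0.63 when reads were scaled to the ERCC reads. In all, 1045 of those genes (9.9%) were more than 2-fold higher in mature mast cells and 2030 (19.2%) more than 2-fold lower. With TMM scaling the split was 1373 higher and 1549 lower, and with ERCC scaling 3242 and 892.

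Apoe was one of the most abundant transcripts of both groups. Its gene (ENSMUSG00000002985, chr7:19696109-19699188 on the minus strand in GRCm38, protein coding) overlaps no other annotated gene. Pooled Apoe was 5749 CPM (95% exact Poisson interval 5735 to 5763) in mature cells, rank 9 of all genes, and 3410 CPM (3400 to 3420) in BMCPs, rank 17. That was 0.575% and 0.341% of endogenous reads, a ratio of 1.69 and a log2 ratio of 0.75, which is 1.00 above the median of all genes. The log2 ratio was above 0 in each of 15 other ways of computing it, from 0.63 in the first column block to 1.67 with ERCC scaling. A column block is the first or last part of each group's columns in the table, and whether the blocks are plates or index kits is not given in the labels.

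Over single cells the difference lay in the lower tail as well as in the centre. Mature mast cells ranged from 1921 to 11828 Apoe CPM with a median of 5526 and quartiles of 4134 and 7250. BMCPs ranged from 6.86 to 9134 CPM with a median of 3227 and quartiles of 1650 and 4935. The ranges overlapped widely: 64 of 93 BMCPs were at or above the lowest mature mast cell, 15 BMCPs were above the mature median, and 12 mature mast cells were below the BMCP median. In every mature mast cell Apoe passed 100 CPM (94 of 94, exact binomial interval 96.2 to 100%), against 88 of 93 BMCPs (94.6%, 87.9 to 98.2%). A level of at least 6000 CPM was reached by 38 mature mast cells and 12 BMCPs, and a level under 1000 CPM by 0 and 13.

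**Figure D1:**
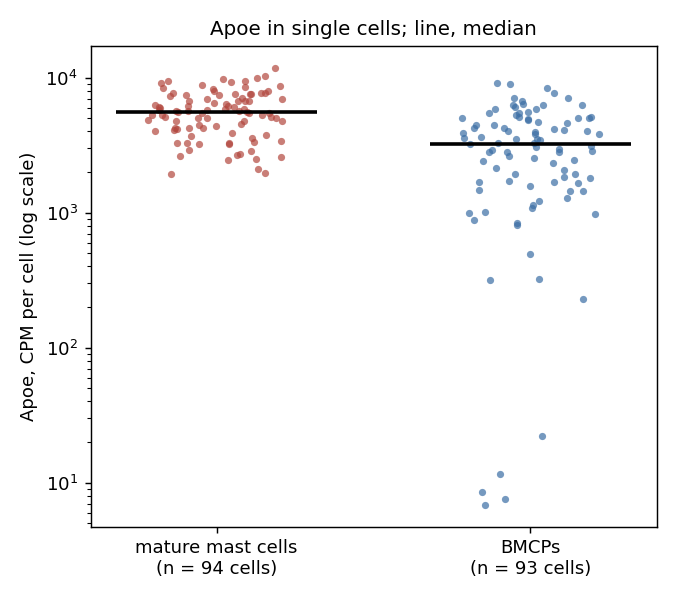
Apoe in CPM per cell on a log axis, with 1 point per kept cell and a line at each group's median (5526 in mature mast cells, 3227 in BMCPs). The mature cells lie between 1921 and 11828, while BMCPs reach down to 6.86, with 5 cells under 100.

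In mature mast cells Apoe varied somewhat less from cell to cell than the median abundant gene. Its coefficient of variation over cells (SD over mean) was 0.38 in mature cells and 0.65 in BMCPs. The median coefficient of the 64 genes with at least 1000 CPM in both groups was 0.45 and 0.66, and 19 and 30 of those genes varied less than Apoe. The 5 BMCPs with the least Apoe were number 46 (6.86 CPM, 14 reads), number 38 (7.60 CPM), number 54 (8.54 CPM), number 55 (11.7 CPM) and number 40 (22.3 CPM). A gap separated them from the next BMCP, as no cell lay between 22.3 and 100 CPM. Their markers differed. BMCP 46 had 101563 CPM of B cell list genes and BMCP 55 had 7442.5 CPM of them. Endogenous reads per ERCC read were 24.7 in BMCP 55 and 97.4 in BMCP 40, against a BMCP median of 562. BMCPs 38 and 54 had 17712 and 15538 CPM of Gzmb, the granzyme B gene. Without BMCP 46 and BMCP 80, whose B cell list genes reached 94972 CPM and whose Apoe was 809 CPM, the Apoe log2 ratio was 0.72.

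Macrophages share the peritoneal cavity with mast cells and express Apoe, so their markers were counted in the same cells. Of the 15 macrophage list genes, 9 had no read in any kept cell, among them Adgre1, Csf1r, Fcgr1, Marco, Timd4, Trem2, C1qb and C1qc. The summed macrophage list was at 0 reads in 89 of 94 mature mast cells and 87 of 93 BMCPs, and ranged up to 410 reads in a mature mast cell and 203 in a BMCP. In the cells with 0 macrophage reads the Apoe median was 5523 CPM in mature cells and 3227 in BMCPs, much as over all cells. The mature mast cell with 410 reads, number 73 (all from Lyz2), had 2497 Apoe CPM, among the 5 lowest of its group. The BMCPs with most macrophage reads were number 77 (203 reads, 1650 Apoe CPM), number 9 (82 reads, 3924 CPM) and number 4 (13 reads, 5438 CPM), on both sides of the BMCP median. Adipocyte list genes were at 0 reads in 93 of 94 mature mast cells and all 93 BMCPs.

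Among BMCPs, Apoe was lower in the cells with little tryptase RNA. Expression of Tpsb2, a tryptase gene of mast cell granules, split the BMCPs into 71 cells from 5503 to 112296 CPM and 22 cells from 91.4 to 193.5 CPM, with none between; every mature mast cell had at least 21279 CPM. In the 71 BMCPs above the gap Apoe had a median of 3924 CPM (quartiles 2439 and 5213), and in the 22 below it a median of 1039 CPM (quartiles 572 and 1898). No BMCP below the gap passed 3541 Apoe CPM. The 22 include BMCPs 46 and 80, the wells rich in B cell genes, and without them the Apoe median was 1319 CPM. Of the 13 BMCPs with under 1000 Apoe CPM, 10 were below the tryptase gap and 3 above it. This split was chosen after the values were seen, and Tpsb2 reads are uncertain because tryptase genes are near-identical.

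Other markers moved with this split. The BMCPs below the tryptase gap had a median of 7822 CPM of the basophil granule protease gene Mcpt8, against 5.63 CPM above it, and 9286 against 2124 CPM of Gzmb. Prss34, another basophil list gene, went the other way, with at least 10 reads in 2 of 22 cells below and 34 of 71 above. Of the other basophil list genes, Cd200r3 was detected in 7 and 47 cells, Il3ra in 12 and 40 and Itga2 in 3 and 6, and Cebpa was at 0 in both. Carboxypeptidase Cpa3 had medians of 38964 CPM below and 54426 above, and chymase Cma1 19893 and 58404. Endogenous reads per ERCC read were lower below the gap, with medians of 421 and 594. The part of these differences in the Apoe level was not tested.

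Rank correlations over all 93 BMCPs ran across these separate clusters of cells and differed within them. Apoe and Tpsb2 had a Spearman correlation of 0.53 over all 93, but 0.23 within the 71 cells above the gap and -0.23 within the 22 below it. Below the gap Tpsb2 spanned only 91.4 to 193.5 CPM, and BMCP 46, rich in B cell genes, had 107 CPM. The value of -0.23 therefore ranks cells near the floor of Tpsb2 and is not read as a relation. For Mcpt8 the value was -0.44 over all BMCPs, -0.18 above the gap and 0.09 below it. Above the gap Mcpt8 had a median of 5.63 CPM and at least 10 reads in 29 of 71 cells, so -0.18 partly ranks low counts. Within the 22 tryptase-low cells Apoe went with Cpa3 (0.68) and Cma1 (0.67), and within the 71 tryptase-high cells those values were 0.13 and 0.13. Without BMCPs 46 and 80 they were 0.61 and 0.59 in the 20 remaining tryptase-low cells. In mature mast cells Apoe had correlations of 0.22 with Tpsb2, -0.21 with Mcpt8, -0.11 with Cma1 and -0.23 with Cpa3. Mcpt8 was near the floor in most mature mast cells (30.2 CPM pooled), so its value there mostly ranks low counts. CPM values within a cell share a total, a library and an amplification. With reads per ERCC read, which share the spike-in count, the value for Mcpt8 was -0.25 in BMCPs and 0.19 in mature mast cells, that for Tpsb2 0.72 and 0.70, and that for Cma1 0.73 and 0.69, so these values depend on the scaling.

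**Figure D2:**
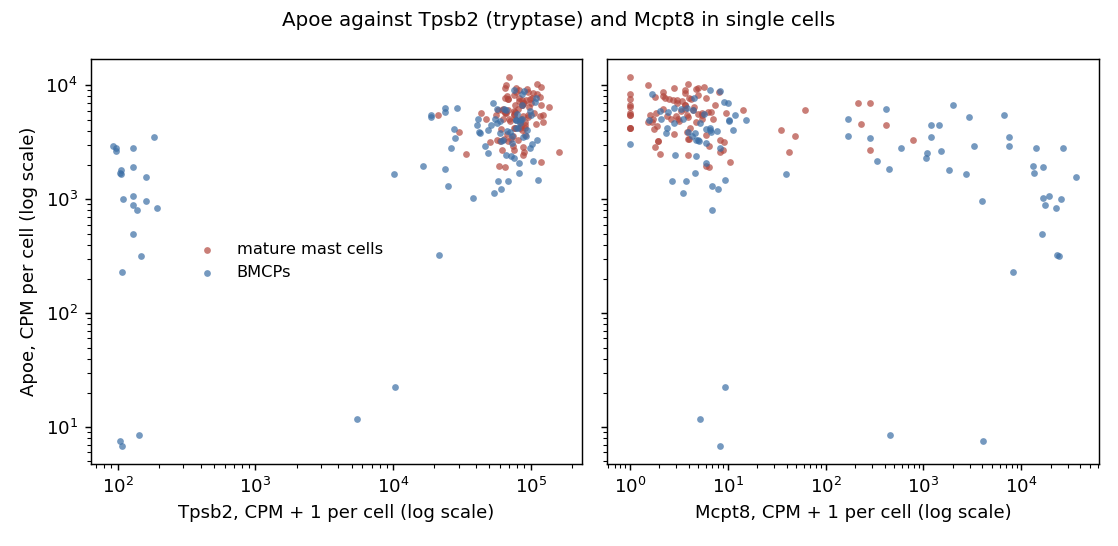
Apoe CPM per cell (log axis) against Tpsb2 (left) and Mcpt8 (right) CPM + 1 per cell (log axes), with 1 point per kept cell. BMCPs fall on both sides of an empty range of Tpsb2 from 193.5 to 5503 CPM, and the 22 below it have a median of 1039 Apoe CPM.

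No gene was closely like Apoe in its levels over cells. Likeness was the lower of the Spearman correlations within the 94 mature mast cells and within the 93 BMCPs, over 2143 genes read in at least 50% of the cells of both groups. Camk2d had 0.24, the chymase-locus protease gene Mcpt4 0.23, Tpsb2 0.22, the adenosine receptor gene Adora3 0.21 and Itm2c 0.21, against a median of -0.08 over all genes. Only 2 of these 5 genes remained with Pearson correlation and 1 with reads per ERCC read, so the order is not firm. No lipid gene of the set was among them, and Soat1, the only other member read widely enough to be ranked, was most like Alox5ap (0.24), Cant1 (0.22) and Rpn2 (0.21).

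The neighbouring apolipoprotein genes were not read. Apoc1, Apoc2 and Apoc4, which lie beside Apoe on chromosome 7, had 0 reads in all 187 kept cells, so their level could be at most 0.0252 CPM in the mature group and 0.0251 CPM in the BMCP group (3 reads of the pooled total). Of the other genes within 60 kb, the mitochondrial import gene Tomm40 had 45.3 CPM in mature cells and 102.8 in BMCPs, opposite in direction to Apoe, Bcam had 9.90 and 1.57 CPM, in the direction of Apoe, and Clptm1 had 201.8 and 184.9. Of 14 apolipoprotein genes, 7 had no read and Apoe alone passed 5 CPM.

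The receptors that take up Apoe particles were sparse beside it. Of 9 listed receptors and partners, 4 passed 5 CPM, with a median log2 ratio of -0.64. Lrp1 had 0.02 CPM or less in either group. Lrpap1, a chaperone of lipoprotein receptors, was the most abundant at 240.8 and 150.6 CPM. Vldlr, the only one past 2-fold, had 41 reads in mature cells and 620 in BMCPs, of which 617 came from BMCP 77.

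Across the 7 members, 6 passed 5 CPM. None was more than 2-fold higher in mature mast cells, against 9.9% of all genes tested, and 1, Hmgcs1, was more than 2-fold lower, against 19.2%. The median log2 ratio of the 6 was -0.20, beside -0.25 for all genes, and since the set was chosen with these ratios known nothing is read from the counts. With ERCC scaling the counts were 2 higher (Apoe and Abca1) and 0 lower, beside 3242 and 892 of all 10556 genes tested. In that scaling the median log2 ratio of all genes was 0.63. Per kilobase of exon, Apoe stood far above the others, at 2689 CPM per kb in mature cells and 1595 in BMCPs. Plin2 followed at 26.9 and 27.3, then Soat1 at 12.9 and 16.9. Hmgcs1 (3.55 and 9.69), Abcg1 (3.23 and 6.10) and Abca1 (3.07 and 2.42) lay close together in mature mast cells, and Lpl had 0.0032 and 0.0024. Unlike Apoe, the others were read in some cells and not in others, so a detected cell is counted here as one with at least 10 reads.

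**Figure D3:**
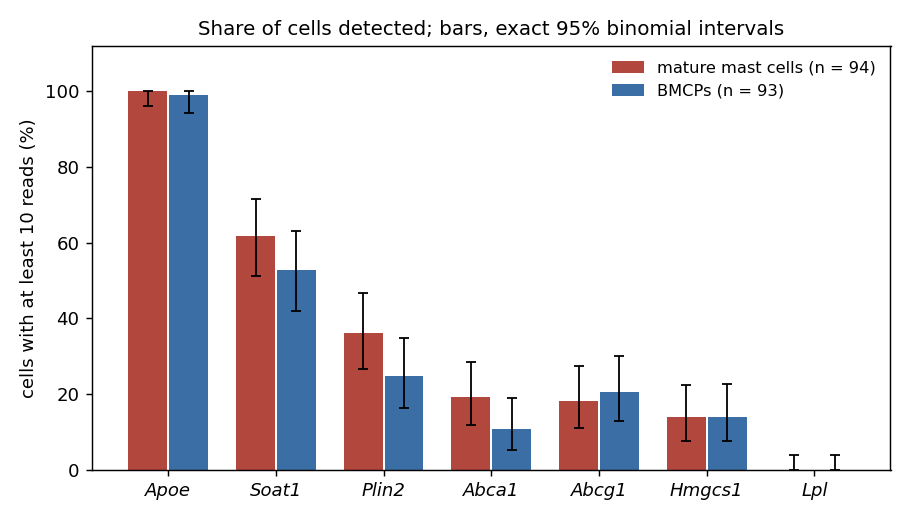
Percent of kept cells with at least 10 reads of each member, with exact 95% binomial intervals that cover counting error only. Apoe is read in nearly every cell, Soat1 in more than 52% of either group, the other members in at most 36.2%, and Lpl in none.

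Of the exporters, Abca1 was read in few cells of either group. Its gene (ENSMUSG00000015243) is at chr4:53030787-53159895 on the minus strand. Abca1 was detected in 18 of 94 mature cells (19.1%, interval 11.8 to 28.6%) and 10 of 93 BMCPs (10.8%, 5.28 to 18.9%), and its level in detected cells was alike, with medians of 159 and 153 CPM. The median over all cells was 0 in both groups, and the highest cells had 545 CPM (mature mast cell 6) and 492 CPM (BMCP 82). Pooled Abca1 was 31.8 CPM in mature cells and 25.1 in BMCPs, a log2 ratio of 0.33. BMCP 82 held 840 of the group's 2997 Abca1 reads. Without it the ratio was 0.76, and without mature mast cell 6 it was 0.09. The ratio was 2.44 in the first column block and -1.26 in the second, so its direction was not stable. By block, Abca1 was detected in 12 of 47 mature cells and 4 of 47 BMCPs, then in 6 of 47 and 6 of 46.

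Abcg1 (ENSMUSG00000024030, chr17:31057675-31117988 on the plus strand) was detected in overlapping shares of cells. There were 17 of 94 mature mast cells (18.1%, 10.9 to 27.4%) and 19 of 93 BMCPs (20.4%, 12.8 to 30.1%). After thinning the shares were 4.26% and 11.8%, and by column block it was 8 of 47 and 14 of 47 cells, then 9 of 47 and 5 of 46. Detected BMCPs held more of it, with a median of 128 CPM against 78.8, and the highest cells were BMCP 61 at 1294 CPM and mature mast cell 39 at 411 CPM. Pooled Abcg1 was 23.6 CPM in mature cells and 44.5 in BMCPs, a log2 ratio of -0.89, with 54.4% and 46.1% of the reads from 3 cells. Here too the column blocks gave opposite signs, -1.82 and 0.26. The gene overlaps Gm25447 on its own strand. Both exporters were detected together in 5 mature mast cells and 2 BMCPs.

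The wider list of 18 sterol efflux and LXR genes had 11 above 5 CPM, with a median log2 ratio of -0.56. Of these, 0 were past 2-fold higher and 3 lower in mature mast cells, beside 9.9% and 19.2% of all genes tested. Without the cell with most reads of each gene the count lower was 1 and the median -0.27, beside -0.13 for all genes. Of the receptors themselves, Nr1h2 (LXR beta) had 88.1 CPM in mature cells and 130.5 in BMCPs and was detected in 44 and 42 cells, while Nr1h3 (LXR alpha) had no read. Smpdl3a had a log2 ratio of -2.15, with detection in 4 and 13 cells. Mylip, an LXR target gene, had -1.07. Cyp27a1 had 5 reads in mature cells and 2602 in BMCPs, 2601 of them in BMCP 46, the cell rich in B cell genes.

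Lipoprotein lipase RNA was at the limit of what the depth could show. Lpl (ENSMUSG00000015568, chr8:68880491-68907448 on the plus strand) had 4 reads in the 94 mature mast cells and 3 in the 93 BMCPs, never more than 1 in a cell. No cell reached 10 reads, which allows up to 3.85% and 3.89% of cells by the exact interval, and no ratio is given. Genes of lipase maturation were read, with Sel1l at 116.1 CPM in mature cells and 77.9 in BMCPs. Lmf2 had 107.2 and 46.2 CPM, a log2 ratio of 1.20, and Lmf1 28.8 and 18.6. The inhibitor gene Angptl4 had 2 reads in mature cells and 1525 in BMCPs, spread over 5 detected BMCPs. In all, 5 of 13 listed genes passed 5 CPM, 1 past 2-fold higher and 2 lower, beside 9.9% and 19.2% of all genes tested. The count lower was 1 with TMM, size factor or ERCC scaling and 0 with the 20 CPM filter. The list median was 0.57, with -0.58 in the first column block and 0.73 in the second.

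Soat1, of the ester storage genes, was the most widely read member after Apoe. Its gene (ENSMUSG00000026600, chr1:156424525-156474331 on the minus strand) overlaps Gm37648 on the other strand. Soat1 was detected in 58 of 94 mature cells (61.7%, 51.1 to 71.5%) and 49 of 93 BMCPs (52.7%, 42.1 to 63.1%). Mature mast cells had a median of 46.8 CPM and a highest cell of 545 CPM, and BMCPs a median of 10.5 CPM and a highest cell of 3391 CPM, number 12. The pooled levels gave the opposite order, 126.6 CPM (124.6 to 128.6) in mature cells and 165.9 (163.6 to 168.2) in BMCPs, a log2 ratio of -0.39. BMCP 12 alone held 20.6% of the BMCP reads, and without it the ratio was -0.07. After every cell was thinned to 100000 reads, at least 10 Soat1 reads were left in 40 mature mast cells (42.6%) and 25 BMCPs (26.9%). The order of the shares reversed between column blocks, with 72.3% of mature cells and 46.8% of BMCPs in the first and 51.1% and 58.7% in the second.

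The share of BMCPs with Soat1 is given for both splits of the group, which are not separate: 20 of the 22 tryptase-low cells were Gzmb-high. Of the 71 BMCPs above the tryptase gap 43 were detected (60.6%, 48.3 to 72.0%), and of the 22 below it 6 (27.3%, 10.7 to 50.2%). Split by Gzmb, the 33 BMCPs under 100 CPM had Soat1 in 23 (69.7%, 51.3 to 84.4%) and the 60 at or above it in 26 (43.3%, 30.6 to 56.8%). The intervals overlap in both splits, and pooled Soat1 had the opposite order, 129.2 CPM in the Gzmb-low and 186.7 CPM in the Gzmb-high cells. No BMCP lay between 50 and 200 Gzmb CPM. Apoe had medians of 3829 CPM in the Gzmb-low and 2831 CPM in the Gzmb-high cells. Soat2, the other sterol acyltransferase gene, had 11.8 CPM in mature cells and 49.9 in BMCPs, a log2 ratio of -1.99, and was detected together with Soat1 in 3 and 10 cells.

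Plin2 had nearly the same pooled level in both groups and was read in somewhat more mature mast cells. Its gene (ENSMUSG00000028494) is at chr4:86648386-86670060 on the minus strand. Pooled Plin2 was 94.5 CPM (92.7 to 96.2) in mature cells and 95.8 (94.1 to 97.6) in BMCPs, a log2 ratio of -0.02, and it was 0.17 without BMCP 16 and 0.88 with ERCC scaling. It was detected in 34 of 94 mature cells (36.2%, 26.5 to 46.7%) and 23 of 93 BMCPs (24.7%, 16.4 to 34.8%), and these intervals overlap. Detected BMCPs held more, with a median of 426 CPM against 240 in detected mature mast cells. BMCP 16 was highest at 1190 CPM, and the highest mature mast cell, number 64, had 618 CPM. Soat1 and Plin2 were detected together in 26 mature mast cells and 14 BMCPs.

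Of 26 ester and droplet genes, 16 passed 5 CPM, with a median log2 ratio of -0.02, 2 past 2-fold higher and 1, Soat2, lower. Over all genes tested the shares were 9.9% and 19.2%. Plin3, a droplet coat gene read in more cells than Plin2, had 211.6 CPM in mature cells and 155.2 in BMCPs, and Plin1 and Plin4 had no read. G0s2, an inhibitor of droplet lipolysis, had 815 reads in mature cells and 0 in BMCPs, from 3 detected mature cells. Fitm2, a droplet formation gene, had a log2 ratio of 2.04 with 11 detected mature mast cells and 1 BMCP.

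**Figure D4:**
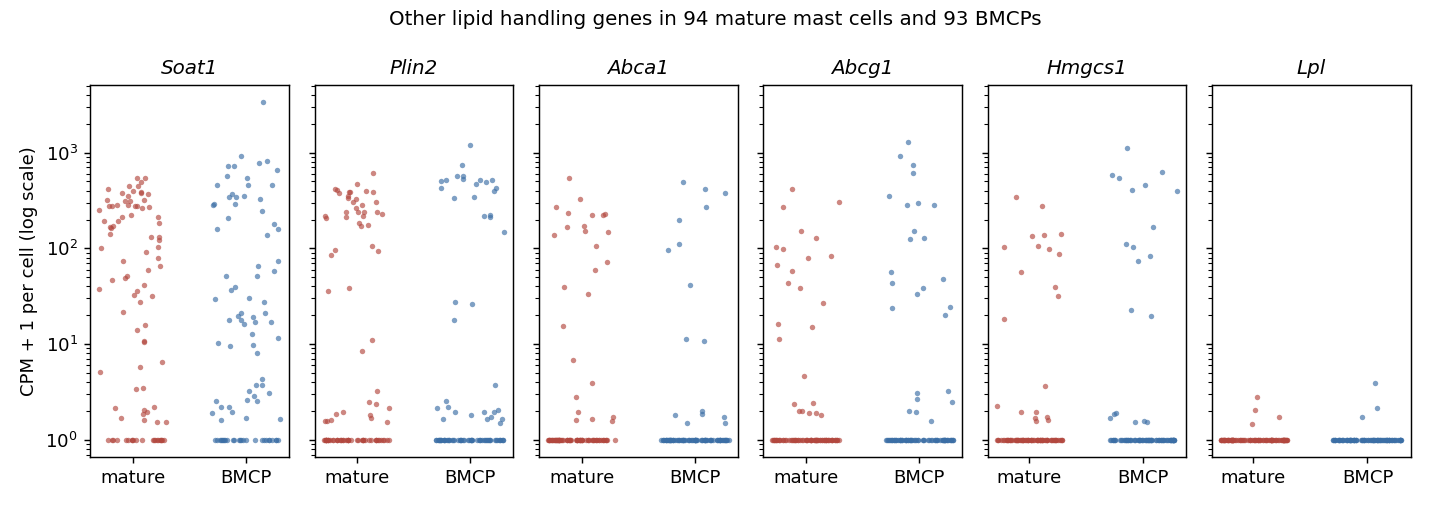
CPM + 1 per cell (log axis) of the 6 members other than Apoe, with 1 point per kept cell and cells without a read at 1. Soat1 fills a range of levels up to 3391 CPM in BMCP 12, whereas Abca1, Abcg1 and Hmgcs1 are at 1 in most cells and Lpl in nearly all.

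Hmgcs1 was read in near-equal shares of both groups at full depth, and its higher pooled level in BMCPs went with more reads per detected cell. The gene (ENSMUSG00000093930, chr13:119690379-119708260 on the plus strand) overlaps Gm48342 on the other strand. It was detected in 13 of 94 mature cells (13.8%, 7.57 to 22.5%) and 13 of 93 BMCPs (interval 7.66 to 22.7%). Medians in detected cells were 102 and 394 CPM. After thinning to 100000 reads, at least 10 Hmgcs1 reads were left in 4 mature mast cells (4.26%) and 9 BMCPs (9.68%). The highest cells were mature mast cell 80 at 341 CPM and BMCP 35 at 1127 CPM. Pooled Hmgcs1 was 16.3 CPM in mature cells and 44.5 in BMCPs, a log2 ratio of -1.40. The ratio was -1.03 without BMCP 35, which held 23.7% of the BMCP reads, and -1.67 without mature mast cell 80. It was -0.52 with ERCC scaling, and -1.86 and -0.41 in the 2 column blocks. Pooled Hmgcs1 was 63.3 CPM in the Gzmb-high BMCPs and 11.3 CPM in the Gzmb-low ones, although 8 of 60 and 5 of 33 cells were detected.

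The cholesterol synthesis list had a median log2 ratio of -0.31, beside -0.25 for all genes, and genes past 2-fold in both directions. The list median was -0.45 in the first column block and 0.17 in the second. Of all genes tested 9.9% were past 2-fold higher and 19.2% lower. Of the 21 listed genes 19 passed 5 CPM, 2 past 2-fold higher and 3 lower in mature mast cells. Hmgcs1 at -1.40 and the thiolase gene Acat2 at -1.02 were among those lower. Those higher were Mvd at 1.48 and Hsd17b7 at 1.19, each detected in 6 mature mast cells and 2 BMCPs. Dhcr7, which acts at the end of the pathway, was the most abundant at 275.7 CPM in mature cells and 211.5 in BMCPs. A mature mast cell had a median of 3 of the 21 genes detected (0 to 13), a BMCP also 3 (0 to 8), and 2 mature mast cells and 8 BMCPs had none.

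Sterol sensing genes were read at modest levels in both groups. Of 17 listed genes 14 passed 5 CPM, 0 past 2-fold higher and 2 lower, Mylip and Insig2 (26.4 CPM and 53.9 CPM), with a median of -0.41. Over all genes tested 9.9% were higher and 19.2% lower. The count of 2 lower was 0 with TMM, size factor or ERCC scaling and in several other alternatives. Srebf2, the SREBP gene of cholesterol synthesis, had 76.6 CPM in mature cells and 118.7 in BMCPs. Npc2, which moves cholesterol out of lysosomes, was the most abundant at 253.3 and 278.4 CPM. Lipa, the lysosomal lipase that frees cholesterol from esters, had 112.5 and 67.6 CPM, a log2 ratio of 0.73.

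Fatty acid genes were listed by function, and their medians are read beside -0.25 for all genes. Without the cell with most reads of each gene the median of all genes was -0.13, and in the first column block -0.24. Over all genes tested 9.9% were past 2-fold higher and 19.2% lower. Of 21 uptake and synthesis genes 14 passed 5 CPM, 3 past 2-fold higher and 1 lower in mature mast cells, with a median log2 ratio of 0.44, 0.08 in the first column block and 0.80 without the cell with most reads of each gene. Acsl1, which activates long-chain fatty acids, had 1197 reads over 9 detected mature mast cells and 0 reads in BMCPs. By cells these were 9 of 94 and 0 of 93, and the latter allows up to 3.89% of BMCPs. The elongase gene Elovl5 had 100.6 and 43.4 CPM, a log2 ratio of 1.19, with 44 mature mast cells and 22 BMCPs detected. Acsl3 had 1.04, with 1 detected BMCP, and Acaca, the gene of the committed synthesis step, had -1.50. Of 22 oxidation genes 18 passed 5 CPM, 0 past 2-fold higher and 3 lower, with a median of -0.42. These were Eci1 (-1.32), Etfdh (-1.12) and Ppargc1a, with 1 read in mature cells and 661 in BMCPs, of which 660 came from BMCP 70. Without the cell with most reads of each gene the count lower was 0 and the median -0.10, beside -0.13 for all genes.

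**Figure D5:**
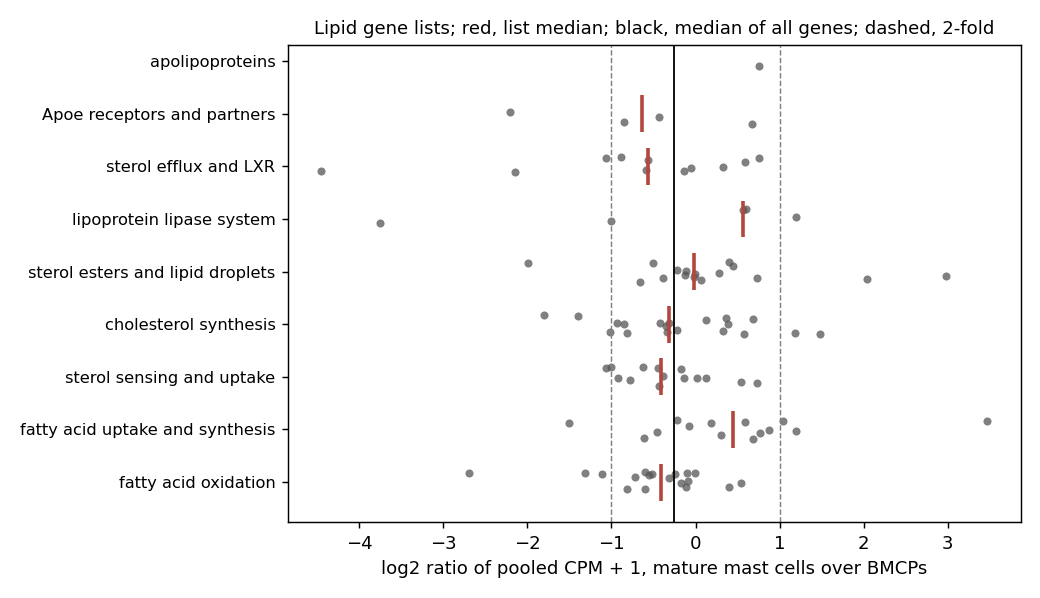
Log2 ratios of pooled CPM + 1, mature mast cells over BMCPs, for the compared genes (5 CPM or more in at least 1 group) of 9 lipid lists, with 1 point per gene. Red bars are list medians where a list has 3 or more such genes, the black line is the median of all genes (-0.25), and dashed lines mark 2-fold.

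Over all lipid lists together, 98 genes were compared, of which 8 were past 2-fold higher and 15 past 2-fold lower in mature mast cells, beside 9.9% and 19.2% of all genes tested. Without the cell holding most reads of each gene in each group, these counts were 11 and 8, so single cells weighed on them. With ERCC scaling they were 32 and 6, beside 3242 and 892 of all 10556 genes tested.

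The members were found together in some cells of both groups. Of Abca1, Abcg1, Soat1, Plin2 and Hmgcs1, none was detected in 16 mature mast cells and 19 BMCPs, exactly 1 in 36 and 44, and exactly 2 in 26 and 22. At least 3 were detected in 16 of 94 mature mast cells and 8 of 93 BMCPs. Numbers expected from the share of each gene alone were not worked out, so these counts do not show a relation between the genes. Apoe showed little relation to any of them over cells, with Spearman correlations between -0.19 and 0.15 in both groups, over cells that share a depth and a total.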

How the data were processed

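Single cells were sorted into 2 plates, and poly(A) RNA was copied, amplified with 23 PCR cycles and sequenced as 50-base single-end reads, with ERCC RNA added, per the labels' protocols. The deposited values were raw read counts per gene, and PCR copies were not collapsed, since the protocol had no molecular identifiers. Per the submitters' processing notes, GSNAP, HTSeq 0.5.3p3 and mm10 were used; the annotation release and strand setting are not given in the sources used here, so overlapping genes are uncertain. Reads of the kept mature cells and BMCPs fell to 12.5% and 16.2% outside features, to 2.97% and 3.24% on several features and to 13.1% and 14.9% in no alignment; these rows and ERCC rows were outside the totals. GENCODE M21 (GRCm38) matched 45229 of 46078 gene identifiers (98.2%), and unmatched rows held 0.0973% of the reads.

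Cells with under 100000 endogenous reads were left out. Counts were summed per group and divided by summed endogenous reads, and 1 CPM was added before log2. Genes needed 5 CPM in either group, and past 2-fold means a log2 ratio of at least 1 or at most -1. Each group is 1 pooled sample, so there is no test or p-value; intervals are exact Poisson or Clopper-Pearson at 95%. The pooled log2 ratio was tested on simulated cells with known fold changes, and detection shares and counts of genes past 2-fold were not. The simulation drew every gene with the same spread from cell to cell, which was not fitted to these data. Python 3.11.15, pandas 2.3.3, scipy 1.17.1, edgeR 4.0.16 (TMM factors only) and DESeq2 1.42.0 (size factors only) were used. Doublets were not called. No pair of cells had identical counts.

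The members, the gene lists and the split by Gzmb were chosen with earlier results of these data known. Named genes were all members, the 2 largest log2 ratios each way and the most abundant gene of each lipid list, the marker genes with most reads, and the 5 genes most like Apoe (3 for Soat1). Some genes of the lists are counted but not reported here by name. Others named, such as the genes around Apoe and known partners of a member, were chosen after their values were seen. Alternatives covered scaling, added CPM, filters, detection limits, thinning and leaving out cells. The column blocks (the first and last 47 mature mast cells, with 47 and 46 BMCPs) and the removal of BMCPs 46, 55 or 80 were added after seeing the data. Promoter letters come from RefSeq on GRCm38.p6, which matched 5 of the 7 members.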

Additional observations from a re-analysis of the deposited data

Results flagged for a closer look

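Apoe reads were also present in both wells that the comparisons did not use. BMCP 6 had 11 Apoe reads among 3978 endogenous reads, or 2765 CPM. BMCP 93 had 124 Apoe reads among 36972, or 3354 CPM. Both were left out for having under 100000 endogenous reads, and both lie close to the BMCP median of 3227 CPM. Of the other members, only Soat1 had a read there, 1 in BMCP 93.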

How the results depend on the processing

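The Apoe log2 ratio of 0.75 was above 0 under all 15 alternatives run. It was 1.00 with TMM scaling, 0.98 with DESeq2 size factors, 0.95 without the mast cell marker list in the totals, 1.67 with ERCC scaling and 1.45 with ERCC scaling without BMCP 55. As a mean of per-cell CPM it was 0.76, in the first column block 0.63, in the second 0.89, without BMCPs 46 and 80 0.72, and with single cells left out in turn it ranged from 0.73 to 0.78. The count of members past 2-fold higher, 0 in the pooled comparison, was 2 with ERCC scaling, with or without BMCP 55, 1 in the first column block and 1 when the median of all genes was subtracted. The count of members past 2-fold lower, 1 in the pooled comparison, was 0 with ERCC scaling, with or without BMCP 55, and 2 both as a mean of per-cell CPM and in the first column block. The share of BMCPs with Apoe was 98.9%, 100% with at least 1 read or in the second column block, and 94.6% with at least 50 reads or after thinning. Over their alternatives Abca1 ranged from -1.26 to 2.44, Abcg1 from -1.82 to 0.26, Soat1 from -0.45 to 0.52, Plin2 from -0.23 to 0.88 and Hmgcs1 from -1.86 to -0.41. Counts over all genes past 2-fold ranged from 451 (20 CPM filter) to 3242 (ERCC scaling) higher and from 892 (ERCC scaling) to 2799 (no filter) lower. For the lipid lists they ranged from 3 (20 CPM filter) to 32 (ERCC scaling) higher and from 6 (ERCC scaling) to 18 (second column block) lower. The cause of these shifts was not tested. Depth limits Lpl, whose 4 and 3 reads allow no comparison. No paired analysis was possible because the cell numbers only name cells, the labels tie no cell to a mouse, and no test was made.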
